A study of Mus musculus with 8 samples.

Results

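At 16 weeks, 858 of the 4208 epithelial cells of the mouse thymus met an RNA rule built on Ackr4, Fmod, Scn1a and related genes, out of 9953 cells in the whole series. A cell entered this gate when its UMIs (unique molecular identifiers, each standing for 1 captured transcript) of Epcam, Krt8, Krt18 and Krt5 summed to at least 3 and to more than those of the collagen and stroma genes Col1a1, Col1a2, Col3a1 and Dcn. Psmb11 and Prss16, which mark cortical thymic epithelial cells (cTEC), also had to make up under 0.1% of its UMIs, and at least 3 of the 8 genes Scn1a, Gm13629, Ptprz1, Fras1, Ackr4, Fmod, Nrtn and Defb1 had to be detected. The members were thus chosen by their RNA counts of these genes, and the surface tags played no part in it. The gate held 260 cells of the first 16-week well and 598 of the second.

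The cells came from C57BL/6 wild-type mice aged 16 weeks or 1 week, with no further allele or agent given. For each age the thymi were pooled and digested, CD45+ cells were depleted, and EpCAM1+ and EpCAM1- cells, both CD45- and Ter119-, were sorted and joined in a fixed proportion, so shares of epithelial among all cells are set by the sort. The pool of each age was loaded on 2 wells, each read as RNA and as antibody-derived tags (ADT, DNA-barcoded antibodies counted per cell for 27 surface targets). Each age is therefore 1 sample, the SD over 2 wells is technical, and no test of any difference is given.

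Thymic epithelial cells (TEC) guide T cell development: cTEC support the early stages and positive selection, and medullary cells (mTEC) express tissue-restricted genes and delete self-reactive thymocytes. A further TEC state that makes the chemokine Ccl21a, drawn on here as Ccl21a TEC, has been described as intertypical between cortex and medulla. Ackr4 encodes an atypical receptor that takes up and degrades CCL19, CCL21 and CCL25, Fmod a collagen-binding proteoglycan, Nrtn the secreted ligand neurturin, Scn1a a voltage-gated sodium channel and Aldh1a1 an enzyme that makes retinoic acid.

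The tags on which the results turn are identified in the count tables by their barcodes, printed here 5′ to 3′ with no part in capitals, because these are the sequences that stand for the surface proteins. The UEA1 entry reports the lectin Ulex europaeus agglutinin I, which binds fucosylated glycans on mTEC, through a barcoded streptavidin-PE.
CD49a: ccattcatttgtggc
CD73: acacttaacgtctgg
Sca1: ttcctttcctacgca
UEA1: aacctttgccactgc
Podoplanin: gggcgatttagtgtg

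Gate cells were read more deeply than the epithelial cells around them. Their median was 12959.5 UMIs against 5162.5 in the other 3350 epithelial cells, 11286.5 in the 254 cTEC and 5074.5 in the 654 Ccl21a TEC. Mitochondrial transcripts took a median 3.64% of UMIs in the gate and 9.17% in the other epithelial cells, and the median ADT total ran the other way, at 1479 against 3552.5. Summed over cells, the gate held 4257496 UMIs in the first well and 8764674 in the second. Scrublet, a doublet caller, placed 33 gate cells (3.85%) and 55 other epithelial cells (1.64%) among the highest scores of their libraries. The libraries shared 15 cell barcodes, and 0 of the 16-week gate cells carried such a barcode. The part that depth and doublets play in the RNA values was not tested. Values within a common depth range stand beside the tags.

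The gate took 21.4% of the epithelial cells in the first well (95% exact Clopper-Pearson interval 19.1 to 23.8, counting error only) and 19.99% in the second (18.6 to 21.5), a mean of 20.7% ± 0.969 (SD, n = 2 wells). The wells differed by less than their counting intervals. The share depends on how many rule genes a cell must hold: it was 33.4% with 2 of 8, 14.9% with 4 of 8, and 5.97% when each cell was first thinned to 2000 UMIs. Just outside the threshold lay 532 cells with 2 rule genes, a median of 7589 UMIs, and just inside it 242 cells with 3 rule genes and 9510.5 UMIs. At the far end, 41 cells held all 8 genes at a median of 21352 UMIs.

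The levels of the marker genes were taken in the epithelial cells of each 16-week well. Because detection of Ackr4, Fmod, Nrtn and Scn1a chose the cells, these levels are a description and no check of the label. Levels are in CPM, the UMIs of a gene in a group scaled to the same total of UMIs for each group and well. Ackr4 stood at 197 and 203 CPM in the gate (first and second well) against 39.8 and 31.7 in the other epithelial cells. Fmod was at 84.8 and 69.0 CPM against 5.61 and 4.91, the widest gap among the rule genes. Nrtn was at 266 and 245 against 50.8 and 47.5, and Scn1a at 131 and 134 against 27.4 and 26.4. Aldh1a1, a marker that the rule left out, was lower throughout, at 17.1 and 23.2 CPM in the gate against 5.17 and 3.21. For these 5 markers the lower well of the gate was above the higher well of the other cells, and 5 of 5 were at least 2-fold higher in both wells (1.76% of 16667 measured genes were). The rule fixed this for 4 of the 5, and nothing is read from the count.

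The other rule genes were also higher in the gate in both wells. Ptprz1, a receptor-type tyrosine phosphatase, had the highest level of the 8, at 313 and 316 CPM against 88.1 and 91.3. Fras1, an extracellular matrix protein of epithelial basement membranes, was at 36.9 and 47.5 against 8.35 and 9.42. Defb1, a secreted antimicrobial beta-defensin, was at 81.5 and 99.7 against 22.2 and 18.3. Gm13629, a non-coding transcript, was at 33.1 and 31.9 CPM against 7.58 and 6.67.

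**Figure D1:**
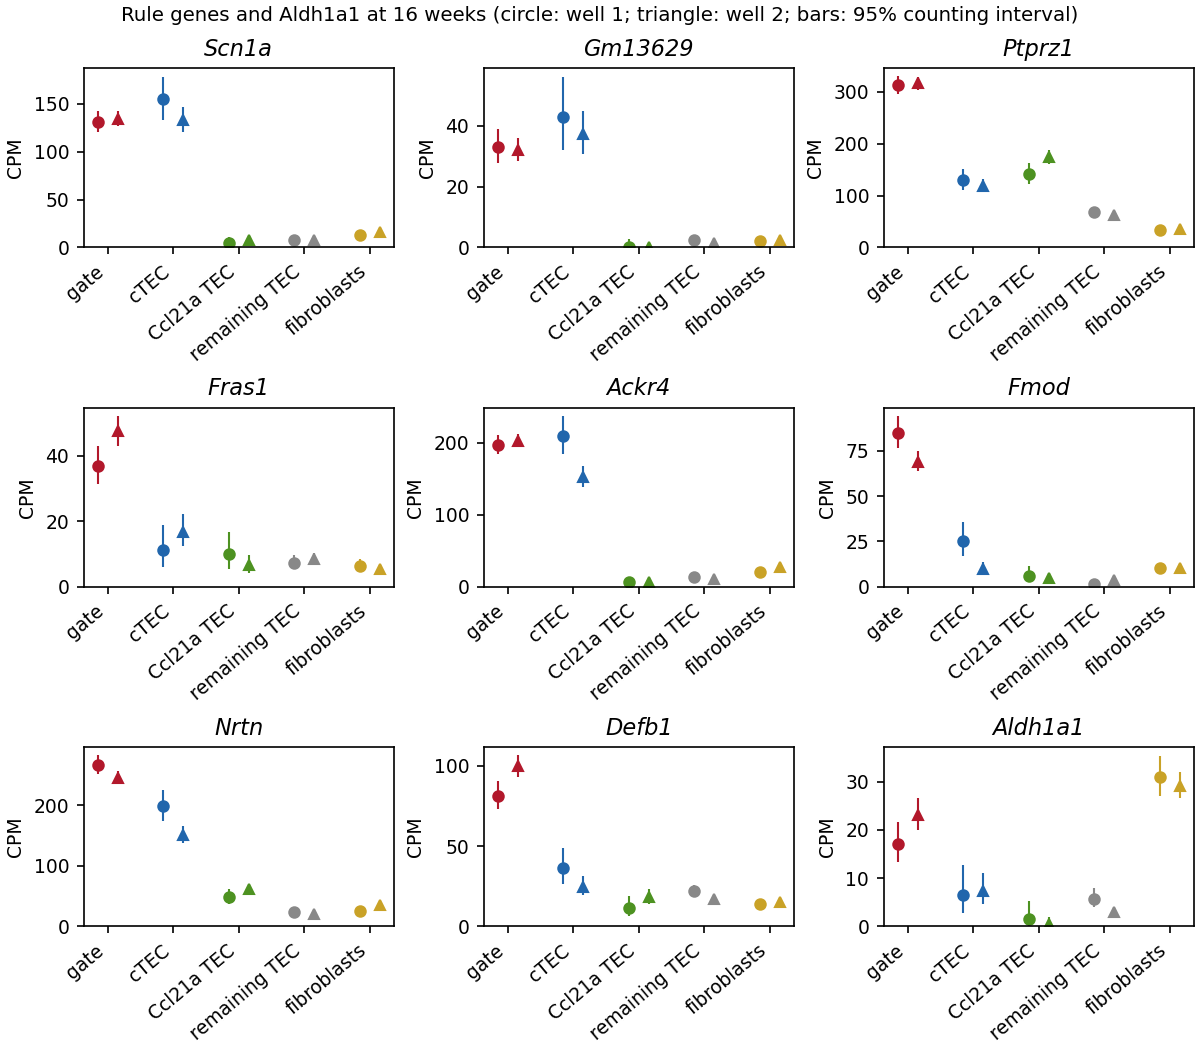
Levels of the 8 rule genes and Aldh1a1 in CPM (linear axis from 0, 1 panel per gene) in the gate, cTEC, Ccl21a TEC, remaining TEC and fibroblasts at 16 weeks, with a circle for the first well, a triangle for the second and bars for the 95% counting interval. The gate (Ackr4 197 and 203) and cTEC (210 and 153) sit together for Ackr4 and Scn1a, Fmod separates the gate (84.8 and 69.0) from cTEC (25.1 and 9.60), and Aldh1a1 is higher in fibroblasts (31.1 and 29.2) than in the gate (17.1 and 23.2).

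To take a gene's own counts out of the choice, each rule gene in turn was left out, and cells with at least 3 of the other 7 were compared with the rest. Cells so chosen were at least 2-fold higher in both wells for 8 of 8 left-out genes (in the full gate 1.76% of 16667 genes were). The 8 genes were picked together with earlier results of these data known. That choice favoured the outcome in advance, and nothing is read from the count. Fmod was 10.9-fold higher (log2 3.45 ± 0.14), Ackr4 5.50-fold (2.46 ± 0.24), Nrtn 4.99-fold and Scn1a 3.87-fold (1.95 ± 0.09). Gm13629 was 3.71-fold higher, Defb1 3.62-fold, Fras1 3.42-fold and Ptprz1 3.22-fold. Aldh1a1 was 4.87-fold higher in the gate (2.28 ± 0.79), with a larger SD between the wells. Depth was also higher in the cells so chosen.

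The rule genes were not particular to the gate. At their own depth, 59.4% and 62.7% of cTEC, in the first and second well, held at least 3 of the 8, and stayed out of the gate only through Psmb11 and Prss16. Ackr4 was at 210 and 153 CPM in cTEC and Scn1a at 155 and 133, both near the gate. Fmod at 25.1 and 9.60 and Aldh1a1 at 6.48 and 7.28 were at least 2-fold lower in cTEC in both wells, which makes 2 of the 5 markers higher in the gate than in cTEC, against 5.93% of 12570 genes. In Ccl21a TEC, Ackr4 was at 7.19 and 7.40 CPM and Scn1a at 5.03 and 7.95, and 5 of 5 markers were higher in the gate (2.69% of 12810 genes were). Ccl21a TEC held under 3 rule genes by construction, so the difference in the 4 rule markers was fixed by the choice of groups. Fibroblasts were set beside the gate as cells outside the epithelium: 64.6% and 64.9% of gate cells held an Ackr4 UMI against 10.1% and 10.9% of fibroblasts, which had a median of 11030 UMIs. For Scn1a the shares were 62.7% and 62.9% against 5.96% and 6.21%. Gate cells were chosen by detection of rule genes and fibroblasts were not, so the gaps in Ackr4 and Scn1a were fixed in part by the choice. No level of background is read from them. Aldh1a1 was not higher in the gate than in fibroblasts, at 17.3% and 21.6% of cells against 21.6% and 20.8%. For this gene too fibroblasts give no level of background, and 2.40% and 2.38% of the other epithelial cells held it. Fibroblasts held at least 3 rule genes in 5.79% and 6.62% of cells.

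Scn1a and Gm13629 are neighbours read in opposite directions. On mm10, Scn1a lies on chromosome 2 from 66270778 to 66440840 on the minus strand, and the antisense transcript Gm13629 from 66440880 to 66546026 on the plus strand, so the first bases of both genes face away from each other. Their RefSeq starts, at 66440837 and 66440880, leave 42 bases between. The 250 bases before the Scn1a start are shown because the start of Gm13629, read the other way, lies within them. They lie at chr2:66440838-66441087 (RefSeq, GRCm38.p6), are written 5′ to 3′ on the minus strand, and carry in capitals the 42 bases between the starts.
Scn1a upstream: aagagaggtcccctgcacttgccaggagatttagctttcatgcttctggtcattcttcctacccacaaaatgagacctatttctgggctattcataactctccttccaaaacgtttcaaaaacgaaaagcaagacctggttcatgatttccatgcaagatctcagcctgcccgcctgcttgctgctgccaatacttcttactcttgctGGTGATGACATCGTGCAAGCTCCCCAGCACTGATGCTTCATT
The CCAAT box occurred 1 time in this window, 63 bases before the start. On both strands CCAAT was held by 33.8% of 32851 promoter windows of the same length, TATAAA by 12.4%, GGGCGG by 32.7% and the E-box CANNTG by 66.2%. The Scn1a window held 1 E-box and neither of the middle pair, and none of the 4 motifs is contained in another. These matches describe letters only. Of the 263 gate cells with a Gm13629 UMI, 85.9% also held Scn1a, and of the 539 with Scn1a, 41.9% also held Gm13629. Scn1a and Gm13629 were both near cTEC levels in the gate (Gm13629 42.9 and 37.4 CPM in cTEC), and only 1 Gm13629 UMI was counted over 654 Ccl21a TEC. Gm13629 overlaps Scn9a on the opposite strand. The methods name no change to the strand setting of STARsolo, whose default counts reads of 1 strand.

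The surface tags were not used by the rule. A tag level here is log2 of 1 plus the cell's tag count scaled to the mean ADT total. CD49a, the alpha1 chain of a collagen and laminin receptor, averaged 5.63 and 5.61 in the gate against 2.75 and 2.59 in the other epithelial cells, a difference of 2.95 ± 0.10 (SD, n = 2 wells). Its median raw count per cell was 26 and 18 in the gate and 4 and 3 outside. CD73, the ectonucleotidase that turns extracellular AMP into adenosine, averaged 4.47 and 4.54 against 1.71 and 1.68, a difference of 2.81 ± 0.07, with median raw counts of 10 and 8 against 2 and 1. Both differences were far larger than the spread between wells.

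Sca1, a GPI-anchored protein of the Ly6 family, averaged 8.35 and 8.64 in the gate against 7.18 and 7.11, a difference of 1.35 ± 0.25. This one rests on the scaling: it fell to 0.37 when tags were centred within each cell (CLR), to 0.39 on raw counts and to 0.32 when MHCII and UEA1, which hold most ADT counts of the series, were left out of the total. UEA1 was lower, at 8.51 and 8.35 in the gate against 9.68 and 9.81, a difference of -1.31 ± 0.20, with median raw counts of 92 and 60 against 1275 and 1079. It was -2.29 after CLR and -2.27 on raw counts. Among cells of 8000 to 20000 UMIs, a range chosen after the data were seen, CD49a differed by 2.97, CD73 by 2.95, Sca1 by 1.71 and UEA1 by -1.11.

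Podoplanin, a mucin-type glycoprotein, was at 6.17 and 6.13 against 3.37 and 2.96 (2.99 ± 0.26). It stood level with CD49a, which was ahead in the first well (2.88 against 2.81) and behind in the second (3.02 against 3.17). Of the 27 tags, 10 were at least 0.5 higher in the gate in both wells, 2 were lower and 15 were neither. CD200, an immunoregulatory ligand, was higher by 1.60, the tetraspanin CD63 by 1.52, the addressin MadCAM1 by 1.48, CD270 (HVEM) by 1.48, the adhesion molecule CD54 by 1.17 and the tetraspanin CD9 by 0.99. CD80, a costimulatory ligand of mature mTEC, was lower by 1.14 (difference -1.14). MHCII differed by -0.06, and by -1.05 after CLR. Under all 4 scalings tried, 6 tags stayed higher (CD49a, CD73, Podoplanin, CD200, CD63 and MadCAM1), 2 stayed lower (UEA1 and CD80), 12 stayed neither and 7 depended on the scaling, Sca1 among them. The tag of Epcam, the surface protein used for the sort, averaged 6.58 and 6.89 in the gate and 6.10 and 6.08 outside.

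**Figure D2:**
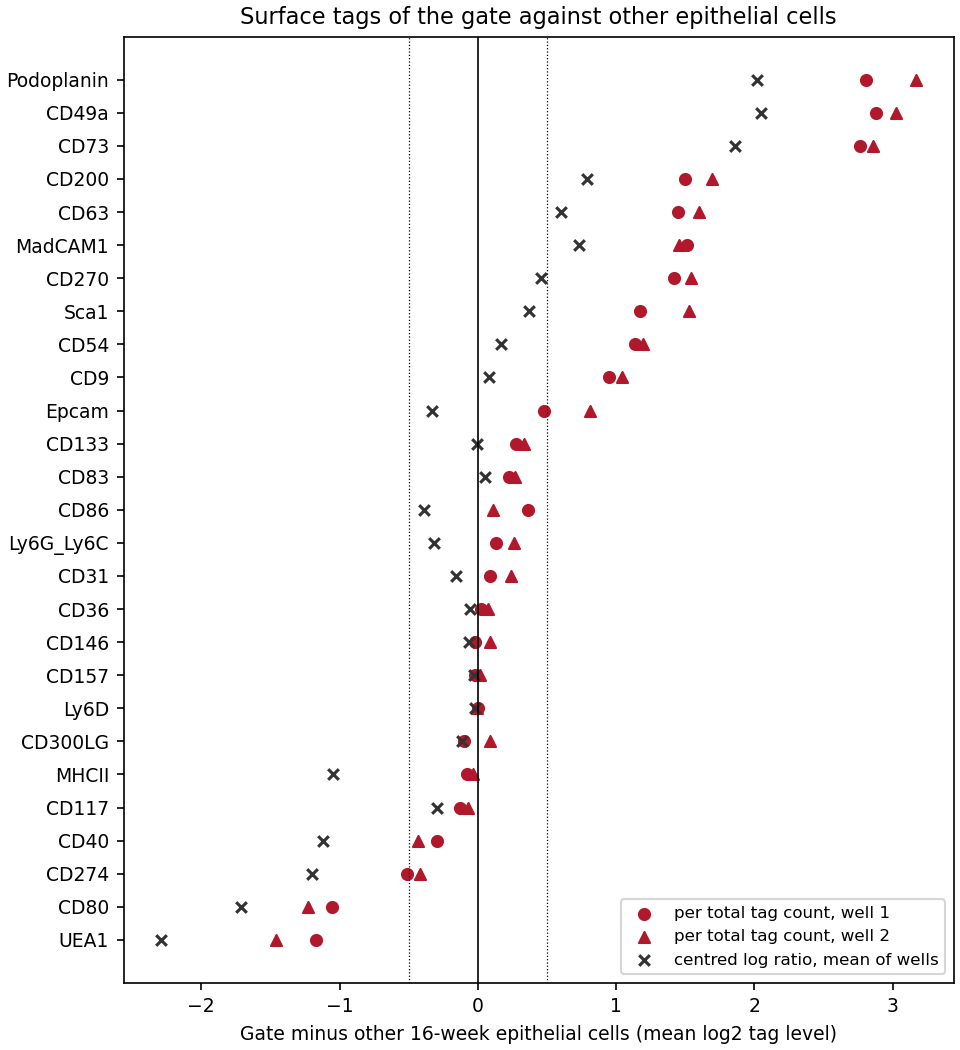
Difference in mean tag level (log2, gate minus other 16-week epithelial cells) of the 27 tags, with a circle for the first well, a triangle for the second, a cross for the mean of both wells after CLR and dotted lines at 0.5 either side of 0. Podoplanin (2.99), CD49a (2.95) and CD73 (2.81) lead and UEA1 (-1.31) and CD80 (-1.14) are at the bottom, while the Sca1 cross (0.37) falls inside the dotted lines.

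The tags moved with the number of rule genes a cell held. CD49a had a median of 1.67 in the 1444 epithelial cells outside cTEC with none of the 8, 2.38 with 2, 4.22 with 3, 5.90 with 4 and 7.20 with 8. CD73 went from 0.80 with none to 2.79 with 3 and 6.29 with 8. UEA1 went the other way, from 10.39 with none through 10.20 with 3 and 8.45 with 4 to 6.97 with 8. Between 3 and 4 rule genes UEA1 fell and the share of cells under a UEA1 level of 9 went from 35.1% to 58.0%. Sca1 was at 7.30 with none, 8.64 with 3 and 8.95 with 8, nearly flat within the gate. Median UMIs rose along the same axis, from 4150.5 with none, so depth and rule genes cannot be told apart in this order.

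**Figure D3:**
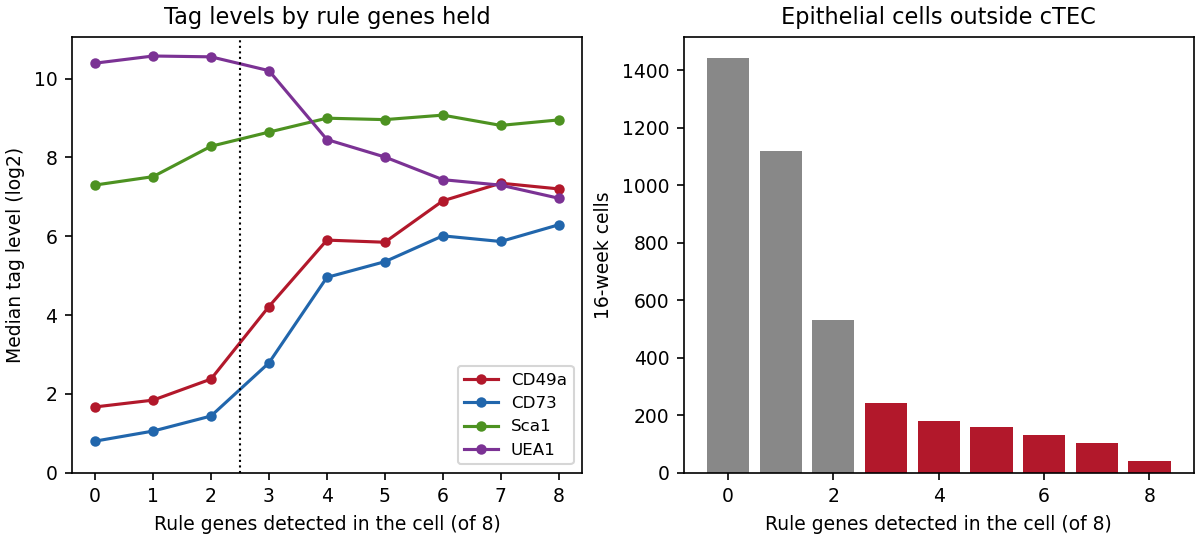
Left, median tag level (log2) of CD49a, CD73, Sca1 and UEA1 in 16-week epithelial cells outside cTEC by the number of the 8 rule genes they held; right, the number of these cells, from 1444 with none to 41 with 8, with gate cells in red. CD49a (1.67 to 7.20) and CD73 (0.80 to 6.29) are higher with more genes and UEA1 (10.39 to 6.97) lower, and the dotted line between 2 and 3 genes is the threshold of the gate.

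The RNA of the tagged proteins followed the tags only in part. Nt5e, which encodes CD73, was at 7.05 and 7.76 CPM in the gate against 2.09 and 2.31, a log2 difference of 1.74. Pdpn was at 101 and 90.5 against 34.2 and 29.1 (1.60), and Cd200 at 200 and 190 against 90.7 and 81.3 (1.18). Itga1, which encodes CD49a, stood at 108 and 121 against 71.5 and 72.1 (0.67 ± 0.11), and Ly6a, which encodes Sca1, differed by 1.04 ± 0.12; neither passed 2-fold in both wells. Fut1, a fucosyltransferase of the glycans that UEA1 binds, was lower at 6.81 and 9.70 against 21.7 and 22.7 CPM (-1.43), and Cd80 at 10.3 and 13.6 against 40.3 and 43.4 (-1.81). Madcam1 RNA was lower in the gate (-1.41), while its tag was higher. Among the 6 nucleotide and glycan enzymes fixed as a list, Nt5e was higher, Entpd1, Fut1 and Fut2 were lower and 2 were neither.

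Set against cTEC, the gate was higher in 8 tags and lower in 3. Sca1 was 1.61 higher and UEA1 1.54 higher, while CD73 was higher by 1.00 and CD49a by 0.81. CD274 (PD-L1) differed by -1.03, MHCII by -0.79 and CD270 by -0.53. Only Sca1 and UEA1 stayed higher under all 4 scalings, and the 3 lower tags stayed lower. Set against Ccl21a TEC, 8 tags were higher and 2 lower. CD49a (2.73), CD73 (2.49) and Podoplanin (1.90) stayed higher under all 4 scalings, and UEA1 (-2.28) and CD80 (-0.59) stayed lower. Sca1 differed from Ccl21a TEC by -0.19, and by -0.72 after CLR. In mean UEA1 the gate as a whole lay between cTEC and Ccl21a TEC.

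Inside the gate UEA1 was not of 1 level. Counted in steps of 1 from a level of 4, the 858 cells fell as 19, 73, 150, 173, 109, 82, 170 and 82, with a dip between 9 and 10. A limit of 9, chosen after this distribution was seen, split the gate into UEA1-low cells, 57.7% of the first well (51.4 to 63.8) and 62.5% of the second (58.5 to 66.4), and UEA1-high cells. The same limit held 85.5% and 81.6% of cTEC as UEA1-low and 5.75% and 3.54% of Ccl21a TEC. UEA1-low gate cells had a median of 12406 and 10475 UMIs, and UEA1-high ones 17370.5 and 15883.5. Median ADT totals were 1314.5 and 949 against 3443 and 2580.

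The sides differed in other tags. CD49a averaged 6.76 and 6.54 in UEA1-low gate cells and 4.09 and 4.06 in UEA1-high ones, a difference of 2.57 ± 0.13 (1.66 after CLR, 1.19 on raw counts). CD73 averaged 5.37 and 5.49 against 3.25 and 2.95, a difference of 2.33 ± 0.30. Podoplanin was higher by 2.28 ± 0.06, CD270 by 1.31 and CD200 by 1.18. UEA1 itself counts in the ADT total that scales these levels, and raw counts did not all follow. Median raw counts of Podoplanin were 50.5 and 32 in UEA1-low cells against 25 and 14.5 in UEA1-high ones. For CD270 they were 59.5 and 42 against 55.5 and 42, and for CD200 7 and 5 against 8.5 and 5.5. CD80 (-0.91), of mature mTEC, and CD40 (-0.98) were lower in UEA1-low cells. Sca1 differed by 0.49 ± 0.28, but its median raw counts were lower in UEA1-low cells, at 109 and 100.5 against 286.5 and 201.5.

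**Figure D4:**
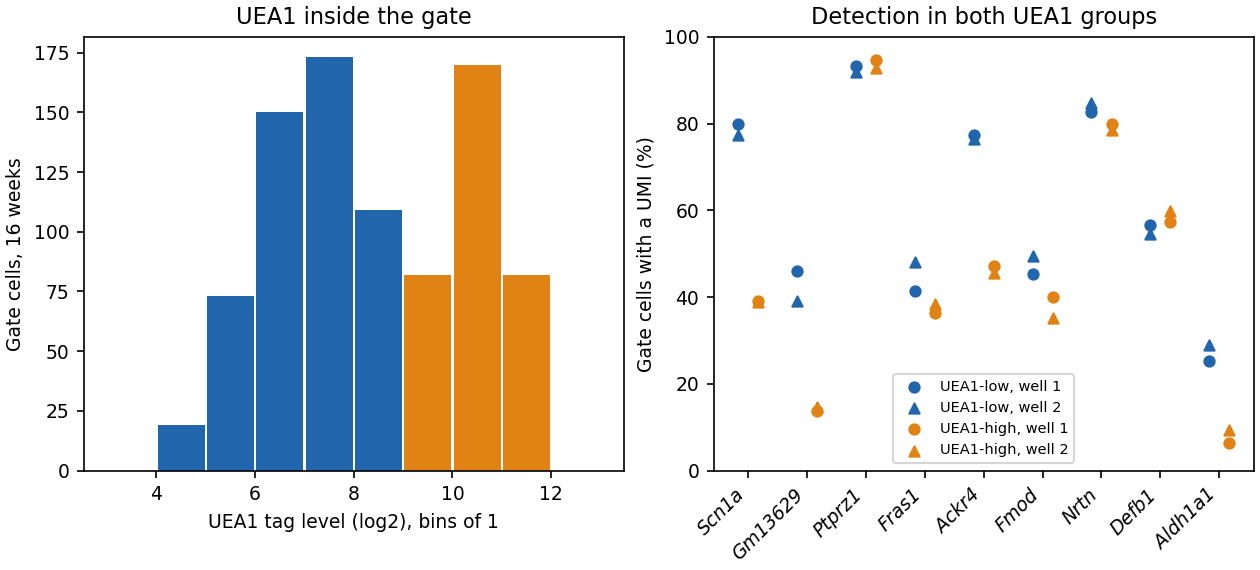
Left, the 858 gate cells by UEA1 tag level (log2, bins of 1), in blue under the limit of 9 and in orange above it; right, the percentage of UEA1-low (blue) and UEA1-high (orange) gate cells with at least 1 UMI of each rule gene and of Aldh1a1, with a circle for the first well and a triangle for the second. Scn1a (80.0% and 77.3% against 39.1% and 38.8%), Gm13629, Ackr4 and Aldh1a1 part by UEA1, and Ptprz1, Nrtn and Defb1 lie within a few points.

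The markers of the gate followed UEA1 unequally. Scn1a was detected in 80.0% and 77.3% of UEA1-low gate cells and in 39.1% and 38.8% of UEA1-high ones, although the latter had more UMIs. Gm13629 was detected in 46.0% and 39.0% against 13.6% and 14.7%, Ackr4 in 77.3% and 76.5% against 47.3% and 45.5%, and Aldh1a1 in 25.3% and 28.9% against 6.36% and 9.38%. Ptprz1 was detected in 93.3% and 92.0% against 94.5% and 92.9%, and Defb1 in 56.7% and 54.5% against 57.3% and 59.8%. Scn1a, Gm13629 and Ackr4 were thus detected more often with low UEA1, and Ptprz1 and Defb1 about as often on both sides. In CPM, 5 of the 5 markers of the gate were at least 2-fold higher in UEA1-low cells, where 1.61% of 11926 genes were (192 genes, and 738 or 537 when judged without the first or the second well), and 3.4% were lower (405, and 1009 or 907). Ccl21a was at 3756 and 2676 CPM in UEA1-low and 14019 and 12775 in UEA1-high cells, and cells with Ccl21a above 0.5% of UMIs made up 11.3% and 10.2% against 64.5% and 58.5%.

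Genes outside the fixed lists also parted by UEA1. Kcnk2, a background potassium channel, stood at 174 and 165 CPM in UEA1-low gate cells and 43.1 and 41.3 in UEA1-high ones. Mgll, the lipase that breaks down the endocannabinoid 2-arachidonoylglycerol, was at 314 and 304 against 77.9 and 82.2. Klf15, a zinc finger transcription factor, was at 23.3 and 22.4 against 5.57 and 5.01, and Grin3a, an NMDA receptor subunit, at 24.3 and 33.5 against 4.17 and 6.01. Higher in UEA1-high cells were Chil3, a chitinase-like protein, at 9.99 and 12.4 against 141 and 204 CPM, and Ncam1, a neural adhesion molecule, at 0.476 and 4.61 against 51.9 and 47.3. Of the lists, Cxcl12 and Kitl, factors that act on early thymocytes, were higher in UEA1-low cells (Cxcl12 538.7 and 482.2 against 146.1 and 170.8), with Tgfb2 lower, out of 7 thymopoietic factors measured. Among 10 cTEC markers, of which 9 were measured, Cxcl12 and Psmb11 were higher. Frem2, Col4a5, Fras1 and Itga8 of 25 basement membrane genes were higher, as were Ogn, Fmod and Prelp among the small proteoglycans, with Epyc lower, and Aldh1a1 and Aldh1a3 among 12 retinoic acid genes. Ccl21a, of the Ccl21a TEC genes, was lower. Of 5 tuft genes 4 were lower, but the tuft genes rested on few cells.

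Across all RNA, 293 genes (1.76% of 16667) were at least 2-fold higher in the gate than in the other epithelial cells in both wells and 2075 (12.4%) were lower. Judged on 1 well, which asks for less, 788 were higher and 3750 lower without the first well, and 603 and 3168 without the second. The median over all genes was -0.11 on the log2 scale. Ranked by the smaller rise of both wells, Fmod came first, followed by Fbln7 (mean 2.45), Nrtn (2.38), Arhgap20 (2.52), Efhc2 (2.69, on 44 gate UMIs) and Ackr4 (2.49). Fbln7, a matrix-binding fibulin, was at 17.9 and 15.7 CPM against 3.30 and 2.81. Fjx1, a secreted growth regulator, was at 25.4 and 28.9 against 5.28 and 5.97, Serpinb6c, a protease inhibitor, at 13.6 and 14.0 against 2.86 and 2.91, and Qrfp, a neuropeptide precursor, at 12.2 and 12.7 against 2.64 and 2.81. The widest falls included Chga and Snap25. Chga, a granule protein of neuroendocrine cells, was at 21.4 and 11.5 against 336 and 158 CPM, but 3 cells held 75.1% of the 6195 Chga UMIs of the other epithelial cells. Snap25, of the vesicle fusion machinery, was at 0.705 and 0.342 against 11.1 and 7.57, on 6 gate UMIs. Cxcl3, Anxa13, Rasgrp3 and Reln were also among the 10, and Mettl11b and Gprc5d had 0 UMIs in the gate, under the limit of 3 UMIs per well that a count of 0 allows. Pth, parathyroid hormone, was at 99.4 and 31.4 against 1249 and 463, but 3 cells held 88.0% of its 20604 UMIs in the other epithelial cells, so its level there is that of a few cells.

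The 2442 remaining TEC, which lie outside the gate, cTEC and Ccl21a TEC, were the largest comparison group: 4.69% of 16147 genes were higher in the gate in both wells and 16.6% were lower. There Scn1a was at 7.88 and 7.23 CPM, Ackr4 at 14.4 and 10.9 and Nrtn at 23.2 and 20.3. Remaining TEC held under 3 rule genes by construction, so the difference from the gate in these genes was fixed by the choice of groups. The cut on Ccl21a likewise limits the level of that gene there. Ccl21a was at 1202 and 1294 CPM in the remaining TEC, Krt14, a basal keratin, at 342 and 367 against 1196 and 1271 in the gate, and Il7, a growth factor of early thymocytes, at 51.0 and 49.4 against 181 and 168. Aire went the other way, at 541 and 582 CPM in the remaining TEC against 148 and 147. Of the remaining TEC, 27.3% and 22.7% were UEA1-low.

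The lists below are read against 1.76% of all genes higher and 12.4% lower in the gate, and the calls of Ackr4, Fmod, Fras1, Nrtn, Scn1a and Defb1 in them were fixed by the rule. Of the chemokine genes, 1 of 13 (Ackr4) was higher in the gate and 4 (Ackr1, Ackr2, Ccl25 and Ccrl2) were lower. Ackr2 rested on 1 and 1 gate UMIs. Ccl25, a ligand of Ackr4, was at 177 and 142 CPM against 743 and 990. These other cells include cTEC, which the rule keeps out of the gate, and Ccl25 was neither against Ccl21a TEC. Ccl21a, another ligand, stood at 8953 and 7277 CPM in the gate, 3618 and 4114 in the other epithelial cells, 4051 and 3049 in cTEC and 14478 and 15262 in Ccl21a TEC, which the cut on Ccl21a defines. Of 11 measured against cTEC, Ccl11 and Ccl21a were higher and Ccl25 and Cxcl12 lower, and of 10 measured against Ccl21a TEC, Ackr4 and Cxcl12 were higher.

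Of 8 small leucine-rich proteoglycans measured, Fmod and Prelp were higher and Aspn was lower. Prelp, which ties basement membranes to collagen, was at 122 and 123 CPM against 28.9 and 34.9. Of 25 basement membrane genes and receptors, Fras1 and Col4a6 were higher, 0 were lower and 23 were neither, with a list median of 0.36. Col4a6, a collagen IV chain, was at 7.52 and 6.73 against 2.42 and 2.06. Against cTEC 6 of this list were higher and Frem2 lower, and against Ccl21a TEC Col4a6, Fras1, Frem2 and Itga8 were higher.

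Of 7 GDNF family genes measured, the ligand Nrtn was higher, the receptors Gfra1 and Ret were lower and 4 were neither. Gfra1 rested on 2 and 7 gate UMIs, and turned to 0.30 higher when cells were thinned to 2000 UMIs. Of 10 sodium channel genes, Scn1a was higher and Scn3a, Scn8a and Scn9a were lower. Scn7a, a sodium-sensing channel, was at 76.1 and 70.6 CPM against 41.4 and 47.4. Of 16 retinoic acid genes, 10 were neither. Aldh1a1 was higher, and Crabp1, Cyp26b1, Rbp4 and Stra6 were lower, with a list median of -0.04. Of 10 mucosal defence genes, Defb1 was higher and 5 were lower.

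Of 19 growth factor, Wnt and BMP genes, 4 were higher, 2 (Bmp2 and Grem1) lower and 13 neither, with a median of 0.64. Igfbp4 and Igfbp3, which bind insulin-like growth factors, were at 392 and 379 against 160 and 162 CPM and at 70.9 and 69.8 against 28.4 and 30.6. Fst, which binds activins, was at 90.0 and 114 against 37.4 and 30.4, and Dkk3 was the other one higher. Of 12 TEC transcription factors, Trp63, the p63 factor of basal epithelia, was higher (300 and 339 against 148 and 146), Tbx1 was lower and 10 were neither. Foxn1 and Pax1 were lower than in cTEC. Of 8 thymopoietic factors, Ccl25 and Dll4 were lower and 6 neither, with Il7 at 181 and 168 against 89.4 and 93.4. Ccl25 and Dll4 were also lower than in cTEC, and neither against Ccl21a TEC. Compared with Ccl21a TEC, Cxcl12 was higher at 340 and 340 against 92.0 and 107, and so was Kitl at 57.1 and 56.2 against 8.63 and 15.6. Of 13 MHC class II genes, Ctss and H2-Ob were lower and 11 neither.

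**Figure D5:**
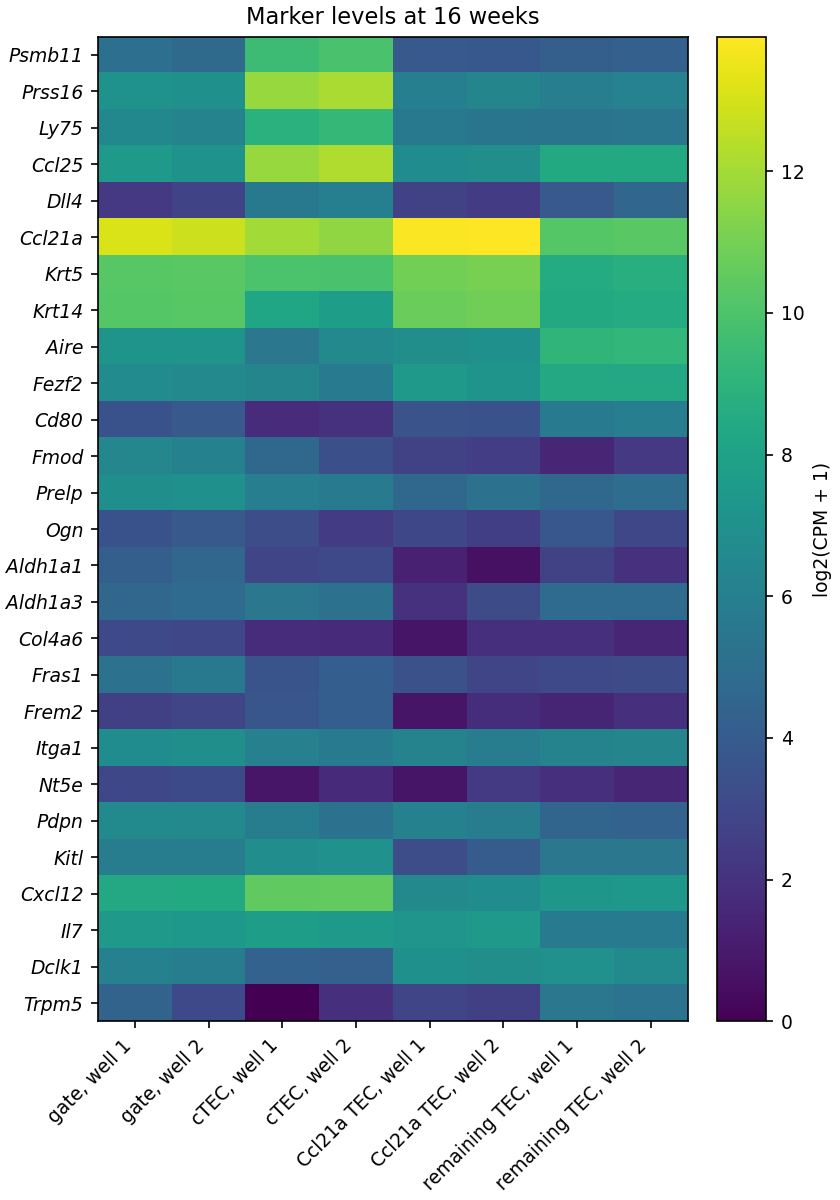
Colour map of RNA levels, as log2 of CPM plus 1, of marker and list genes (rows) in the gate, cTEC, Ccl21a TEC and remaining TEC at 16 weeks, with 1 column per well. Ccl21a in the gate as a whole (8953 and 7277 CPM) lies between cTEC (4051 and 3049) and Ccl21a TEC (14478 and 15262). This level pools UEA1-low gate cells (3756 and 2676) and UEA1-high ones (14019 and 12775), which are not drawn apart. Aire in the gate (148 and 147) is below the remaining TEC (541 and 582).

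Markers of other TEC were present in the gate. Of the 5 general TEC genes only Krt14 was higher and 4 were neither. Of 10 cTEC genes 5 (Ccl25, Dll4, Prss16, Psmb11 and Tbata) were lower than in the other epithelial cells, a count that the cut on Psmb11 and Prss16 fixes in part, and 10 of 10 were lower than in cTEC, where 2.7% of all genes were lower. Without cTEC among the other cells, Psmb11 and Prss16 turned to 0.83 and 0.98 higher in the gate. Of the 13 Ccl21a TEC genes Krt14, Pdpn and Trp63 were higher and Cldn4 lower. Their summed level was 15061 and 14043 CPM in the gate, 7734 and 8816 in the other epithelial cells and 23591 and 24828 in Ccl21a TEC. Against Ccl21a TEC, where 1.98% of all genes were lower, 12 were neither. Of 8 mature mTEC genes 7 were lower: Aire, which drives tissue-restricted genes, was at 148 and 147 against 409 and 424 CPM, and Fezf2 at 104 and 93.9 against 277 and 255. Of 8 tuft genes 3 were lower.

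Markers of cells outside the epithelium were also counted. Of 10 fibroblast genes 10 were neither, and their summed level was 578 and 639 CPM in the gate, 549 and 631 in the other epithelial cells, 1182 and 1253 in Ccl21a TEC and 8564 and 8124 in fibroblasts. All 6 endothelial genes were lower in the gate than in the other epithelial cells, with summed levels of 35.9 and 46.8 CPM against 256.46 and 253.14. The remaining TEC held the highest sums of the epithelial groups, at 351.5 and 366.1 CPM. Sums were below the gate in cTEC (17.013 and 20.519 CPM) and in Ccl21a TEC (26.606 and 34.55). Of 4 measured against cTEC, Egfl7 was higher and 3 were neither, and 4 of 4 measured against Ccl21a TEC were neither. Of 5 mural genes 2 (Cspg4 and Rgs5) were lower than in the other epithelial cells, and 3 (Acta2, Notch3 and Rgs5) were higher than in cTEC. The mural list summed to 726 and 823 CPM in the gate, 856 and 859 in the other epithelial cells, 231 and 258 in cTEC and 449 and 313 in fibroblasts, and Acta2, an actin of smooth muscle, made up 496 and 641 CPM of it in the gate. Of 4 mesothelial genes 3 were lower. Of 10 thymocyte genes 2 were lower, near the 12.4% of all genes, with summed levels of 67.9 and 96.0 CPM against 140 and 137 in the other epithelial cells and 316 and 378 in cTEC. Of 5 other haematopoietic genes 1 was lower, also near that share, at summed levels of 95.4 and 127 against 236 and 251. Their part in the results was not tested.

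At 1 week the same rule found 124 cells, 4.21% and 5.22% of the epithelial cells of the 2 wells (mean 4.71% ± 0.710), against 20.7% ± 0.969 at 16 weeks. The difference of 16.0 percentage points rests on the cells it is counted over: cTEC made up 77.2% and 72.3% of epithelial cells at 1 week and 5.67% and 6.19% at 16 weeks. Without cTEC in the denominator, the shares were 22.0% and 18.7%, a difference of 3.32 points, and at 2000 UMIs per cell also without cTEC they were 6.58% and 0.900%. Those 1-week cells were deeper, at a median of 30741 UMIs, and carried more Psmb11 and Prss16 (a median 0.0627% of UMIs against 0.00904%).

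The 1-week gate had a different make-up. Ackr4 was at 237 and 238 CPM there, near the 16-week gate, but Scn1a was at 18.9 and 28.01, Fmod at 9.47 and 2.85, and Gm13629 had 0 UMIs in 65 and 59 cells, where a count of 3 per well is the limit that a count of 0 allows. Nrtn was at 140 and 94.5, and Aldh1a1 at 2.99 and 2.37. Ccl21a was at 1166 and 1257 CPM against 8953 and 7277 at 16 weeks, and Krt5, a basal keratin, at 139 and 251 against 1250 and 1290. Sca1 tags averaged 4.74 and 4.95 at 1 week and 8.35 and 8.64 at 16 weeks, with Ly6a RNA at 66.8 and 81.6 CPM at 1 week. CD73 was close at both ages, at 4.45 and 4.29 against 4.47 and 4.54. Within the 1-week wells, gate cells were higher than other epithelial cells by 1.24 in CD73, 1.24 in Podoplanin and 1.05 in CD49a, by 0.12 in Sca1 and by 0.20 ± 0.41 in UEA1. Each age is 1 pool, so age and pool cannot be told apart.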

How the data were processed

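The deposited tables hold UMI counts per gene and tag counts per cell, not normalized. Per the study's methods and the submitters' processing notes, the authors aligned reads with STARsolo 2.7.9a to mm10 and kept cells of at least 2000 UMIs. The labels and the methods name different versions of the 3′ kit. No libraries were left out, and replicates are 2 wells of 1 pool, so values are given per well with their SD and no test. From the counts, CPM of UMIs summed per group and well gave log2 ratios (prior 0.5 UMI), and a gene was called at 2-fold or more in both wells, with at least 20 UMIs over both sums in each; a tag at 0.5 or more in both wells. Counting intervals are exact at 95% and cover counting error only. Ccl21a TEC were cells outside gate and cTEC with Ccl21a at 0.5% of UMIs or more; fibroblasts were not epithelial and held at least 10 stroma UMIs. Doublets were kept in the main values; scrublet (scanpy 1.11.5) marked 253 cells at a rate of doublets that grew with library size, since its automatic limit marked 14, and these were left out as an alternative. Named genes were the rule genes and Aldh1a1, the 10 widest rises and falls in both wells, list members by level and the genes of the tags. The members and lists were chosen with earlier results of these data known. The genes and cells named inside the UEA1 split were chosen after the values were seen. Alternatives changed the rule, depth, scaling (edgeR 4.0.16 TMM, DESeq2 1.42.0 size factors), filters and wells. The scripts (Python 3.11.15, numpy 2.4.6, scipy 1.17.1, pandas 2.3.3, R 4.3.3) were tested on simulated data. GENCODE M21 matched 55227 of 55487 gene identifiers. The RefSeq promoter table had no entry for Fras1 and Defb1. Results of a few genes are not reported here.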

Additional observations from a re-analysis of the deposited data

Results flagged for a closer look

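Scaled to the ADT total, tags of 5 targets moved one way in the gate in both 16-week wells. They moved the opposite way in both 1-week wells, each taken against the other epithelial cells of its well. The difference between ages was not tested, since each age is 1 pool. The other epithelial cells were mostly cTEC at 1 week (77.2% and 72.3% of epithelial cells) and not at 16 weeks (5.67% and 6.19%), and their levels moved more than those of the gate for CD270 and CD83. CD270 was 1.42 and 1.54 higher in the gate at 16 weeks and -0.28 and -0.12 at 1 week, an age difference of 1.68. The gate itself was at 6.74 and 6.76 at 16 weeks and 6.24 and 6.35 at 1 week, and the other cells at 5.32 and 5.22 and at 6.52 and 6.47. CD31 was at 0.09 and 0.24 at 16 weeks and at -0.77 and -1.11 at 1 week, a difference of 1.10. CD83 was at 0.23 and 0.27 against -0.50 and -0.40, a difference of 0.70, with the gate at 0.46 and 0.49 against 0.56 and 0.59 and the other cells at 0.24 and 0.22 against 1.06 and 1.00. CD133 was at 0.28 and 0.33 against -0.11 and -0.12, a difference of 0.42, and CD36 at 0.02 and 0.07 against -0.17 and -0.17, a difference of 0.22.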

How the results depend on the processing

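Of the values that answer a comparison, 85 moved and 69 did not under the alternatives, and of the other values 643 moved, 6 changed sign and 989 did not. Asking for 2 or 4 of the 8 rule genes gave a share in the gate of 33.4% or 14.9%, an age difference of 24.8 or 12.1 points, CD49a at 1.92 or 3.43, CD73 at 2.01 or 3.27 and UEA1 at -0.69 or -1.70. With 2 genes Sca1 was at 1.08, with 147 genes higher and 826 lower. An epithelial minimum of 10 UMIs gave 27.2% and 22.4 points, and Psmb11 and Prss16 under 0.2% gave 22.0% and 12.6 points. Thinning to 2000 UMIs gave 5.97% and 5.81 points, CD49a at 3.79, CD73 at 3.17, UEA1 at -2.14 and 4 tags lower. Without cTEC the share was 22.0% and the age difference 3.32 points (5.68 with thinning), CD49a was at 3.12, CD73 at 2.95 and UEA1 at -1.55, with 510 genes higher.

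For CLR, raw counts and totals without MHCII and UEA1 in turn, CD49a was at 2.04, 2.06 and 2.10, CD73 at 1.86, 1.87 and 1.98, Sca1 at 0.37, 0.39 and 0.32 and UEA1 at -2.29, -2.27 and -2.35. Each of these scalings gave 6 tags higher and 5 lower than in the other epithelial cells and 2 higher than in cTEC, and they gave 3, 5 and 3 higher than in Ccl21a TEC. Medians gave CD49a at 3.78, CD73 at 3.89 and UEA1 at -2.19. Within 8000 to 20000 UMIs CD73 was at 2.95, Sca1 at 1.71 and UEA1 at -1.11. Taking only UEA1-low gate cells gave CD49a at 3.98, CD73 at 3.73 and 525 genes higher. No filter gave 2108 genes higher and 3991 lower, and a minimum of 100 UMIs 183 and 898. Between UEA1-low and UEA1-high gate cells CD49a was at 2.18 with a limit of 8, 2.86 within the depth range, 1.66 after CLR, 1.19 on raw counts and 1.82 without MHCII and UEA1. The limits of 8 and 10 made 47.5% and 69.5% of the gate UEA1-low, the limit of 8 gave 124 genes higher, and the depth range gave 110 higher and 228 lower. The cause of these moves was not tested. Settings added after the data were seen were the depth range, the UEA1 limits and split, the scalings inside the gate and against cTEC or Ccl21a TEC, and thinning joined with the denominator.

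Leaving out either well gave ranges of 19.99% to 21.36% for the share, 15.28 to 16.65 points for age, 2.88 to 3.02 for CD49a, 2.76 to 2.85 for CD73, 1.17 to 1.53 for Sca1 and -1.46 to -1.17 for UEA1. It gave 10 to 11 tags higher and 2 to 3 lower, 603 to 788 genes higher and 3168 to 3750 lower, 57.7% to 62.5% UEA1-low, 537 to 738 and 907 to 1009 genes inside the gate, and 2.48 to 2.66 for CD49a there. The 8 left-out rule genes were at least 2-fold higher in every setting run, an outcome that the choice of these genes favoured in advance. Of single genes, Gnat3 (0.10), Reln (0.051) and Upk3b (0.20) turned to higher with 2 rule genes, Gfra1 (0.30) with thinning, and Prss16 (0.98) and Psmb11 (0.83) without cTEC. No paired analysis was possible because the replicate numbers name wells of 1 pool and no test was run. Low counts limit the precision of genes such as Snap25 (6 gate UMIs) and Efhc2 (44).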
